A study of Homo sapiens with 6 samples.

Results

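The RNA of UMUC3 cells infected with the empty vector was examined here: 3 of the 6 libraries of the series, taken by the treatment in their labels, PLVX-IRES-Zsgreen without an insert. UMUC3 is an established human bladder cancer cell line, grown from an invasive urothelial carcinoma. PLVX-IRES-Zsgreen is a lentiviral expression vector whose green fluorescent marker, ZsGreen, is read from an internal ribosome entry site. The study infected UMUC3 cells either with this vector or with the same vector carrying TIM-1, and sequenced total RNA. The labels give no passage, no time after infection and no age of culture, and do not say whether replicates 1, 2 and 3 came from separate cultures, so the spread between them may be technical. HAVCR1, the gene of TIM-1, which this vector does not carry, had 4, 0 and 0 counts. Every value below is an absolute level in these 3 libraries; there was 1 group, and no test between groups was made.

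The bladder is lined by urothelium, a layered epithelium. Its surface cells make uroplakins and keratin 20 under regulators such as GATA3, FOXA1, PPARG and ELF3, while its basal cells use TP63, keratin 5 and keratin 14. Epithelial cells hold to each other through E-cadherin, the product of CDH1, and cells that move to a mesenchymal program use vimentin, N-cadherin and the ZEB, SNAI and TWIST factors instead. Bladder cancers are commonly classed by how much of each of these programs they keep.

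Total counts were 15651864, 16242133 and 17162935 in replicates 1, 2 and 3. Levels are counts scaled to a common library total, CPM, given in that replicate order, with the mean ± SD over the 3 libraries (n = 3 throughout). An order in CPM is an order of reads, which also follows gene length. Transcript levels of different genes are therefore set against each other per length, as TPM, the same scaling after division by the exon length of each gene. This length is the union of all annotated exons and can exceed that of any single transcript. An order per length therefore also depends on the annotation of each gene. A gene was called expressed with at least 1 CPM in each library, which is about 16 counts. A gene was called at the floor with at most 3 counts in every library, the number that a count of 0 allows, and low if it lay between. Among 19861 protein-coding genes, 11099 were expressed (55.9%) and 6606 lay at the floor (33.3%), of which 4912 had 0 counts throughout. The counts of expressed and floor genes in each list below are to be read beside these shares. The median protein-coding gene stood at 5.16 CPM. Means of at least 10, 100 and 1000 CPM were reached by 8930, 2212 and 92 protein-coding genes. Where a gene's exons overlap those of another gene, the counting may have left reads out: of 494 protein-coding genes that share 90% or more of their exon bases, 5 were expressed (1.01%), and of 598 that share from 50% to under 90%, 23.6%. At 10% to under 50% shared, 66.1% were expressed, beside 57.0% of the genes that share under 10%, so a lower share of expressed genes was seen only from 50% on. Replicate 1 stood apart from replicates 2 and 3, as the values below show.

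The classes of genes differed in the sequence before their start sites, and 6 of these sequences are shown as examples, from 3 expressed genes and 3 that lay at the floor. Each is the 250 bases upstream of the RefSeq start (GRCh38.p14), 5′ to 3′ on the strand of the gene, with CG dinucleotides in capitals. TMSB10 (chr2:84905406-84905655, plus strand) encodes an actin monomer-binding thymosin, EPHA2 (chr1:16156070-16156319, minus strand) an ephrin receptor and VIM (chr10:17227991-17228240, plus strand) the mesenchymal filament protein vimentin. At the floor lay KRT20 (chr17:40885243-40885492, minus strand), the keratin of urothelial surface cells, UPK1B (chr3:119173348-119173597, plus strand), an uroplakin, and KIT (chr4:54657707-54657956, plus strand), the stem cell factor receptor.
TMSB10: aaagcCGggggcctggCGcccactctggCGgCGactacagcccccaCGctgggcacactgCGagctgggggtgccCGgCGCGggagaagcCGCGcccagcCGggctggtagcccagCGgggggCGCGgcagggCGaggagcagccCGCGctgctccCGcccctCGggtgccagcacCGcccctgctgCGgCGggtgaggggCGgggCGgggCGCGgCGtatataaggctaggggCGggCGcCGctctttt
EPHA2: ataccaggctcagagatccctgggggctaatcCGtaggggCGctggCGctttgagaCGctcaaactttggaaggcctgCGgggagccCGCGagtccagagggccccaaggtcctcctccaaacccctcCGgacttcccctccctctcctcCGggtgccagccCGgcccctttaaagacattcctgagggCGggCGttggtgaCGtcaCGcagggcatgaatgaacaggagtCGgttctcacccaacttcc
VIM: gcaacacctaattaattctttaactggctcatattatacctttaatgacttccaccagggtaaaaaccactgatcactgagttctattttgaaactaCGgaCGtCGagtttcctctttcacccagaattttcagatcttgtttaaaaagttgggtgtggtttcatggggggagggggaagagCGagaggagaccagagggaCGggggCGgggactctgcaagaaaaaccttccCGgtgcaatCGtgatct
KRT20: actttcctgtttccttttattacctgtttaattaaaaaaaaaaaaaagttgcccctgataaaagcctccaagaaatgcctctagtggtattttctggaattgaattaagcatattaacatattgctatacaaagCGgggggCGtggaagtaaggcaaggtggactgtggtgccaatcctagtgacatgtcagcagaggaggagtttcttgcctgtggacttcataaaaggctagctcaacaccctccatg
UPK1B: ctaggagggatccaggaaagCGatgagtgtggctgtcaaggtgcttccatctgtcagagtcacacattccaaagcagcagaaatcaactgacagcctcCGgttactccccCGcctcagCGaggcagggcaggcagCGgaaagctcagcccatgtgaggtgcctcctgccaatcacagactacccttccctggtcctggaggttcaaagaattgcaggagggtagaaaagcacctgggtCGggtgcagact
KIT: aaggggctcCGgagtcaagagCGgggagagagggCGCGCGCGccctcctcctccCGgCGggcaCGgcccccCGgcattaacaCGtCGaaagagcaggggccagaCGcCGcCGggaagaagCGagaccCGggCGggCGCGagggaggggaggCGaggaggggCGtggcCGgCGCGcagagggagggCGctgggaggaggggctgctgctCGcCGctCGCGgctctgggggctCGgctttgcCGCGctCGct

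The CG count was 31 for TMSB10, 15 for EPHA2 and 8 for VIM, and 2 for KRT20, 6 for UPK1B and 34 for KIT. Over the 11310 protein-coding genes with exactly 1 RefSeq start in the table, the median was 18. It was 22 for the 6414 expressed genes among them, 13.5 for the 1160 low genes and 5 for the 3736 genes at the floor. Fewer than 5 CG dinucleotides were found before 2.84% of expressed genes and before 48.8% of genes at the floor. The motif TATAAA, on either strand, stood in 4.46% of the sequences of expressed genes, 19.6% of those of genes at the floor and 10.1% of all. VIM, with few CG dinucleotides and a high level, and KIT, with many and no more than 2 counts in any library, show that single genes departed from these medians.

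The genes that took the most reads were those of protein synthesis, the mitochondrial genome, the cytoskeleton, chaperones and glycolysis. EEF1A1, the elongation factor that brings charged transfer RNA to the ribosome, took the most, at 15693, 18452 and 17817 CPM (17320 ± 1445). MT-CO1, a subunit of cytochrome c oxidase encoded by mitochondrial DNA, was next in reads at 11749, 12290 and 13334 CPM (12458 ± 806). The cytoplasmic actins ACTG1 (7151 ± 1058 CPM) and ACTB (4239 ± 618 CPM), the chaperone genes HSP90AA1 (5930 ± 684 CPM), HSPA8 (3116 ± 241 CPM) and HSP90AB1 (2944 ± 177 CPM), and the glycolytic genes ENO1 (4608 ± 258 CPM) and GAPDH (4377 ± 826 CPM) were also among the first 20 by reads. The remaining members were 6 further mitochondrial genes, the ribosomal protein genes RPL4, RPL8 and RPS4X, the elongation factor EEF2, and FTL, the light chain of the iron store ferritin. FTL was lower in replicate 1 than in the others, at 2277 against 3420 and 3258 CPM, and GAPDH was higher in replicate 1, at 5331 against 3907 and 3893 CPM.

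**Figure D1:**
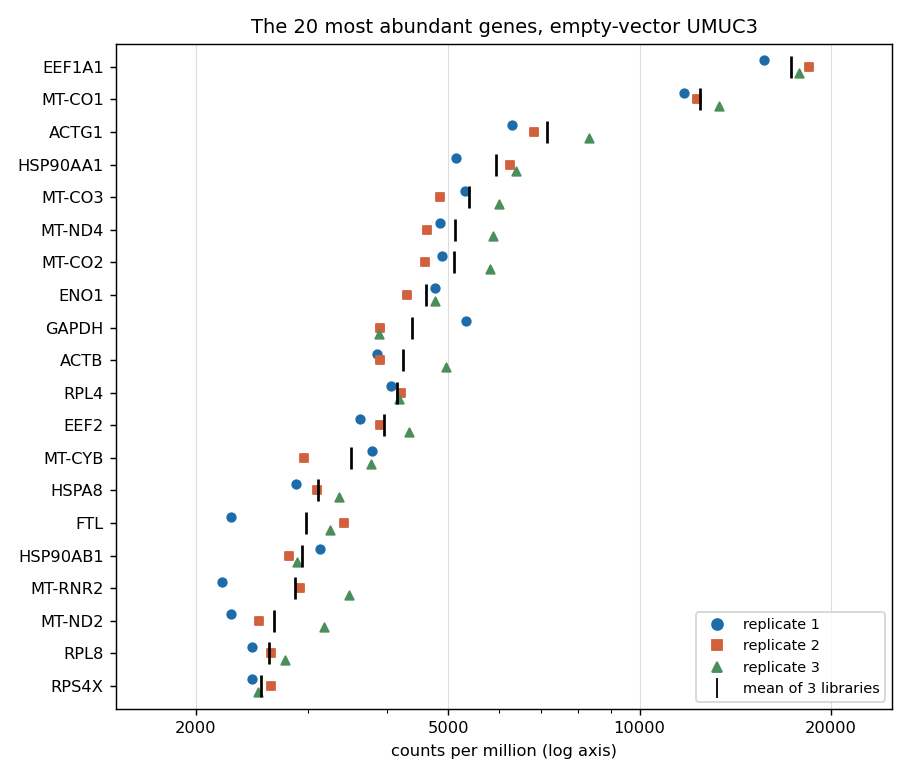
CPM on a log axis for the 20 genes of the highest mean level, 1 point per library and a bar for the mean of 3 libraries. EEF1A1 and MT-CO1 stand apart at 11749 CPM or more, and the other 18 genes lie between 2204 and 8335 CPM.

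Counts were not concentrated in a few genes. The 10 most abundant genes took 6.79%, 7.0% and 7.72% of the counts, and 870, 818 and 768 genes were needed to reach 50% of them. Mitochondrial genes took 4.20%, 4.22% and 5.08%, and cytosolic ribosomal protein genes 6.70%, 7.37% and 7.07%. Per length the order was different: MT-CO1 (28427 ± 1067 TPM), MT-CO2 (26211 ± 2739 TPM) and MT-CO3 (24196 ± 2220 TPM) came first, and TMSB10, whose promoter is printed above, was the first nuclear gene at 17489 ± 610 TPM. The range of MT-CO2 over the libraries overlapped with those of MT-CO1 and of MT-CO3, which did not overlap with each other. Within each library MT-CO1 lay above MT-CO2 and MT-CO2 above MT-CO3. Of the first 20 genes by CPM, 14 were also among the first 20 per length.

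Housekeeping families were nearly complete. Of 86 cytosolic ribosomal protein genes, 81 were expressed, with a median of 712 CPM. RPL10L and RPL39L, alternative copies of standard genes, had 0 counts. RPS10 stood at 4.16 ± 0.247 CPM and shares 39.4% of its exon bases with a readthrough gene. ALDOA, a glycolytic aldolase, read 2.24, 0.554 and 1.11 CPM and shares 53.5% of its exon bases with a neighbouring gene model. The part of shared exons in these readings was not tested. Of 26 actin, tubulin and thymosin genes and their partners, 25 were expressed. The exception was ACTA2, smooth muscle actin, at 0.319, 0.493 and 0.641 CPM. TMSB4X, a second thymosin, stood at 1605, 2021 and 1835 CPM, the tubulin gene TUBB at 1821, 1965 and 2103 CPM, and the actin crosslinker FLNA at 1883, 1797 and 1980 CPM.

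Glycolysis was expressed almost throughout, with 18 of 21 genes past 1 CPM in each library. Several of its members were highest in replicate 1. LDHA, which turns pyruvate into lactate, stood at 3016, 1684 and 1779 CPM. PGK1, a phosphoglycerate kinase, stood at 1086, 637 and 633 CPM, and the glucose transporter gene SLC2A1 at 203, 82.9 and 80.8 CPM. Replicates 2 and 3 lay close together for these 3 genes and replicate 1 lay above both. PKM, pyruvate kinase, was at 1830, 1521 and 1684 CPM, so that replicates 1 and 3 were closer to each other.

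The uroplakins were low or at the floor, although the line comes from a urothelial tumour, while the regulators of the urothelial surface program were expressed in part. In bulk RNA, fewer cells of a type and less RNA per cell cannot be told apart. None of the 5 uroplakins was expressed. UPK1A had 12, 6 and 8 counts and UPK2 0, 5 and 0. UPK1B had 2, 0 and 0 counts and UPK3A had none, and these 2 genes lay at the floor. Of the regulators of the surface cell program, PPARG, a nuclear receptor, was expressed at 4.47, 5.66 and 5.48 CPM, FOXA1 at 2.30, 1.91 and 1.81 CPM and GATA3 at 1.15, 2.34 and 2.21 CPM. Per length they reached 4.04 ± 0.429 TPM (PPARG), 1.78 ± 0.278 TPM (FOXA1) and 1.94 ± 0.639 TPM (GATA3), beside a median of 3.63 TPM over all protein-coding genes. ELF3, GRHL2, EHF and OVOL1, further epithelial regulators, and the splicing regulator ESRP1 had 0 counts in the 3 libraries. In all, 9 of 19 luminal regulators were expressed and 9 lay at the floor, 47.4% each, beside the 55.9% and 33.3% of all protein-coding genes. The highest per length was the retinoid partner RXRA at 27.9 ± 5.64 TPM. Of 14 luminal products, 5 were expressed, led by CD9, a tetraspanin of many cell types, at 316, 297 and 281 CPM.

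Few keratins were expressed. Of 55 keratin genes, 5 were expressed, 7 were low and 43 lay at the floor, 34 of them with 0 counts. KRT18 and KRT8 encode the pair of simple epithelial keratins that polymerize together. KRT18 stood at 320, 400 and 493 CPM and KRT8 at 43.8, 42.7 and 44.5 CPM. Per length KRT18 reached 441 ± 82.8 TPM and KRT8 22.3 ± 0.587 TPM, and the values of the 2 genes did not overlap. KRT10, a keratin of differentiated skin, stood at 27.6 ± 7.39 TPM, KRT80 at 20.4 ± 1.13 TPM and KRT15, a basal keratin, at 4.91 ± 1.17 TPM. The values of KRT10 overlapped with those of KRT8 and of KRT80, and KRT8 lay above KRT80 throughout. KRT7, typical of urothelium, had 7, 14 and 9 counts, and KRT19, found in many simple epithelia, had 12, 3 and 3. KRT5 had 1 count in each library, and KRT14, KRT13, KRT20 and KRT6A had 0.

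Of 22 basal and squamous genes, 4 were expressed and 12 lay at the floor, with TP63, the basal regulator, and the desmosomal cadherins DSG3 and DSC3 at 0 counts. CDH3, P-cadherin, was low at 1.47, 0.924 and 0.291 CPM. CD44, a hyaluronan receptor that basal cells share with mesenchymal cells, was the abundant exception at 622, 614 and 678 CPM. PITX1 at 71.0, 62.5 and 64.7 CPM and TFAP2A at 68, 58.1 and 61.5 CPM, both transcription factors, came next per length. The 4th expressed member was TFAP2C, at 4.38 ± 0.862 CPM.

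Epithelial adhesion genes were expressed in part, without E-cadherin. CDH1 and EPCAM, which encode E-cadherin and the epithelial cell adhesion molecule, had 0 counts in each library, a level that allows at most 0.192, 0.185 and 0.175 CPM by counting error alone. The catenins that link cadherins to actin were expressed: CTNNA1 stood at 677, 610 and 612 CPM and CTNNB1 at 320, 302 and 310 CPM. Tight junction genes were present in part, with TJP1 at 82.7, 84.2 and 80.3 CPM and OCLN at 13.5, 19.9 and 17.7 CPM, while CLDN4 was at 2.94, 1.48 and 1.51 CPM and CLDN7 was low. In all, 9 of 23 epithelial adhesion genes were expressed (39.1%), beside the 55.9% of all protein-coding genes. CLDN1, a claudin, was lowest in replicate 1 at 3.90 against 14.1 and 15 CPM. Of 16 desmosome genes, 6 were expressed (37.5%). Per length PERP, a desmosomal membrane protein, reached 108 ± 10.3 TPM and the desmosomal cadherin DSG2 52.3 ± 9.51 TPM. The plakophilins PKP4 and PKP3 reached 42.7 ± 5.39 and 27.2 ± 2.32 TPM. The plakoglobin gene JUP was at 1.29 ± 0.290 TPM and DSP, desmoplakin, at 0.512 ± 0.175 TPM. Among 23 cadherin genes 6 were expressed, and the highest per length were CDH24 (31.3 ± 2.02 TPM) and CDH2 (19.8 ± 2.49 TPM), the latter encoding N-cadherin.

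Of 19 mesenchymal products 14 were expressed (73.7%) and of 10 mesenchymal regulators 5 (50%), beside the 55.9% of all protein-coding genes. VIM stood at 1625, 1732 and 2049 CPM (1228 ± 117 TPM). Among the regulators, ZEB1, a repressor of E-cadherin, stood at 169, 161 and 148 CPM, SNAI1 at 21.2, 15.1 and 15.4 CPM and TWIST1 at 4.98, 7.08 and 6.93 CPM. TCF4 stood at 28.0, 21.1 and 20.7 CPM and ZEB2 at 16.2, 17.9 and 15.4 CPM. Per length the order was ZEB1 (65.0 ± 5.90 TPM), SNAI1 (36.1 ± 8.10 TPM), TWIST1 (10.9 ± 1.83 TPM), TCF4 (2.96 ± 0.593 TPM) and ZEB2 (2.32 ± 0.206 TPM). The exon lengths used were 27828 bases for TCF4 and 25058 for ZEB2, beside 2033 for TWIST1, so the lower places depend on this length. The libraries agreed for ZEB1 to within a SD of 10.2 CPM on a mean of 160 CPM. SNAI2 was low, with 5, 22 and 13 counts, and TWIST2 and PRRX1 had 0 counts. CDH2 stood at 30.9, 26.7 and 25.6 CPM and SPARC, a matrix glycoprotein, at 114, 100 and 102 CPM. FN1, fibronectin, stood at only 12.1, 14.2 and 10.3 CPM and, per length, at 2.49 ± 0.425 TPM. FAP, POSTN and THY1, which mark fibroblasts, lay at the floor.

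**Figure D2:**
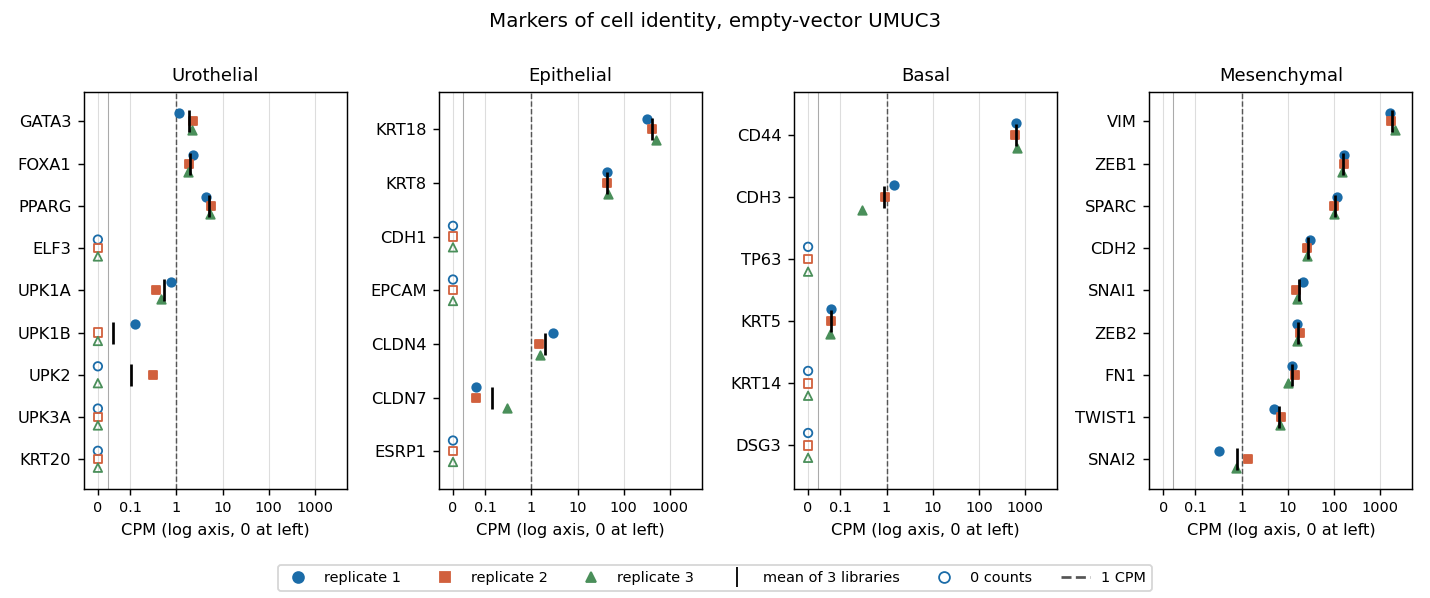
CPM on a log axis for markers of urothelial, epithelial, basal and mesenchymal cells, 1 point per library; hollow points at the left mark libraries with 0 counts, the black bar is the mean and the dashed line marks 1 CPM. PPARG, FOXA1, GATA3, KRT8, KRT18, CLDN4, CD44 and most mesenchymal genes lie to the right of the line in the 3 libraries. CDH1, EPCAM, ELF3, TP63 and KRT20 have 0 counts in each library.

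Collagens were expressed in part. Of 44 chains, 15 were expressed (34.1%) and 17 lay at the floor (38.6%), beside the 55.9% and 33.3% of all protein-coding genes. COL6A2, a chain of the microfibrillar collagen, stood at 74.0, 62.4 and 70.2 CPM and was the highest per length at 45.0 ± 4.42 TPM. COL18A1, a basement membrane collagen, reached 19.1 ± 2.39 TPM and COL6A1 16.0 ± 2.96 TPM; the ranges of these 2 chains overlapped, with COL18A1 above COL6A1 in each library. The basement membrane pair COL4A1 and COL4A2 stood at 56.0, 42.1 and 37.3 CPM and at 82.0, 56.2 and 64.9 CPM, with replicate 1 highest in both. The fibrillar collagens of fibroblasts differed among themselves: COL1A1, which passed 1 CPM in each library, had 117, 65 and 65 counts, while its partner COL1A2 had 0 and COL3A1 had 1, 0 and 0. COL5A1, another fibrillar chain, was higher at 37.6, 22.8 and 22.6 CPM, with COL5A2 at 9, 2 and 1 counts.

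Laminins, which build the basement membrane, were expressed for 6 of 12 chains (50%), near the 55.9% of all protein-coding genes. LAMC1 stood at 177, 178 and 171 CPM, LAMB2 at 150, 133 and 138 CPM, LAMB1 at 96.0, 81.0 and 73.5 CPM and LAMA5 at 120, 86.6 and 87.6 CPM. LAMC1 (73.5 ± 3.46 TPM) and LAMB2 (71.9 ± 5.92 TPM) did not differ beyond their spread. LAMA3, the alpha chain of the epithelial laminin, had only 7, 10 and 14 counts although its partner LAMB3 was at 18.7, 18.0 and 19.6 CPM. LAMA4, LAMB4 and LAMC3 had 0 counts.

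Integrins, the receptors for these matrix proteins, were expressed for 12 of 26 chains (46.2%), beside the 55.9% of all protein-coding genes. ITGB1, the beta chain that most matrix-binding alpha chains share, stood at 1893, 1525 and 1306 CPM. ITGA3, a laminin receptor chain, stood at 624, 561 and 608 CPM, ITGAV at 155, 160 and 123 CPM, ITGA5, the fibronectin receptor chain, at 117, 98.1 and 103 CPM and ITGA6 at 93.8, 83.4 and 76.6 CPM. Per length ITGB1 (926 ± 199 TPM) lay above ITGA3 (215 ± 14.2 TPM) in each library. ITGB6 and ITGB8, epithelial beta chains, lay at the floor, and ITGAL, a leukocyte chain, had 0 counts, while the leukocyte chains ITGB2 (12.1 ± 3.54 CPM) and ITGAM (2.65 ± 0.973 CPM) passed 1 CPM in each library.

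Of 33 genes for matrix proteases and the plasminogen system, 14 were expressed and 14 lay at the floor. These shares were 42.4% each, beside the 55.9% and 33.3% of all protein-coding genes. PLAU, urokinase, stood at 305, 498 and 522 CPM and was lowest in replicate 1. PLAUR, the urokinase receptor, stood at 139, 105 and 97.7 CPM and MMP14, a membrane-bound metalloprotease, at 165, 116 and 110 CPM, both highest in replicate 1. MMP2, a gelatinase, was at 12, 9.17 and 8.97 CPM and MMP9, the other gelatinase, at 14.8, 5.11 and 4.78 CPM. MMP7, an epithelial matrilysin, had 0 counts.

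Receptor tyrosine kinases were expressed for 28 of 58 genes (48.3%), and 18 lay at the floor (31.0%), beside the 55.9% and 33.3% of all protein-coding genes. AXL, the receptor for GAS6, stood at 355, 379 and 446 CPM, EPHA2 at 260, 286 and 302 CPM and MET, the receptor for hepatocyte growth factor, at 361, 359 and 325 CPM. Per length AXL reached 268 ± 25.1 TPM, EPHA2 239 ± 12 TPM and MET 174 ± 14.4 TPM. The ranges of AXL and EPHA2 overlapped, but within each library AXL lay above EPHA2 and EPHA2 above MET. The next genes per length were EPHB4 (54.3 ± 6.74 TPM), RYK (52.9 ± 1.36 TPM), FGFR1 (47.6 ± 0.863 TPM) and EGFR (37.7 ± 9.66 TPM), of which EPHB4 and RYK did not differ beyond their spread. FGFR1 stood at 179, 187 and 196 CPM, EGFR at 168, 123 and 109 CPM and ERBB2 at 56.0, 53.4 and 54.9 CPM. FGFR3, the fibroblast growth factor receptor often mutated in bladder tumours of low grade, was at 23.6, 18.6 and 19.2 CPM. ERBB3, a partner of ERBB2, stood at 5.81, 3.88 and 3.32 CPM and ERBB4 had 0, 1 and 0 counts. KIT, PDGFRA, ALK, FLT3 and KDR lay at the floor.

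Transcripts of some ligands of receptor tyrosine kinases were found in the same libraries, and whether the proteins were made was not tested. GAS6, the ligand of AXL, stood at 49.5, 57.1 and 60.1 CPM, while HGF, the ligand of MET, had 0 counts. Ligands of EGFR differed among themselves: EREG, epiregulin, stood at 32.7, 69.9 and 58.0 CPM, HBEGF at 15.9, 39.8 and 40.5 CPM and TGFA at 2.62, 2.34 and 1.34 CPM, while AREG and EGF lay at the floor. EREG and HBEGF were lowest in replicate 1. FGF2, a ligand of FGFR1, was at 24.9, 34.1 and 32.0 CPM, PDGFC at 79.2, 84.8 and 82.4 CPM and VEGFA, the angiogenic factor, at 61.4, 36.1 and 34.4 CPM. In all, 20 of 27 growth factor ligands were expressed (74.1%) and 6 lay at the floor (22.2%), beside the 55.9% and 33.3% of all protein-coding genes.

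Of 14 TGF-beta and BMP receptors 11 were expressed (78.6%), among them TGFBR2 at 89.8, 84.5 and 79.3 CPM and TGFBR1 at 57.9, 48.9 and 47.0 CPM. Of 19 Notch, Wnt and Hedgehog receptors 13 were expressed (68.4%), with NOTCH2 at 214, 177 and 161 CPM, LRP5, a Wnt co-receptor, at 146, 94.9 and 97.8 CPM and SMO at 48.9, 40.1 and 41.5 CPM. Of 19 TNF receptor genes 10 were expressed (52.6%), a share near the 55.9% of all protein-coding genes. TNFRSF12A, the receptor for TWEAK, reached 183 ± 22.4 TPM per length and TNFRSF1A, the main TNF receptor, 134 ± 8.08 TPM. The death receptors TNFRSF10B and FAS stood at 87.5, 91.3 and 85.5 CPM and at 13.6, 17.0 and 12.1 CPM.

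Receptors for interferons and cytokines were expressed for 21 of 36 genes (58.3%), near the 55.9% of all protein-coding genes. IFNGR1 stood at 34.3, 35.9 and 39.0 CPM, IFNGR2 at 35.3, 38.0 and 35.0 CPM and IFNAR1 at 71.6, 89.0 and 87.1 CPM. These chains of the type II and type I interferon receptors passed 1 CPM, whereas IFNAR2, the other type I chain, read 0.192, 0.431 and 0.524 CPM. IFNAR2 shares 83.2% of its exon bases with another gene model, so its low reading cannot be told apart from reads left out in counting. IFNLR1, the receptor for lambda interferons, had 0 counts. The highest per length were IL13RA2, a decoy receptor for interleukin 13, at 89.3 ± 4.88 TPM, IL27RA at 65.4 ± 5.89 TPM and OSMR, the oncostatin M receptor, at 63.5 ± 17.6 TPM. IL27RA and OSMR did not differ beyond their spread. IL6ST, the signalling chain shared by interleukin 6 family receptors, stood at 107, 131 and 109 CPM, and IL6R at 2.88, 3.14 and 4.66 CPM.

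Nuclear receptors were expressed for 24 of 48 genes (50%), and 16 lay at the floor (33.3%), near the 55.9% and 33.3% of all protein-coding genes. The highest per length were NR1H2, an oxysterol receptor (65.9 ± 4.50 TPM), and NR3C1, the glucocorticoid receptor (40.7 ± 10.0 TPM). NR3C1 stood at 132, 93.8 and 90.5 CPM, RARG, a retinoic acid receptor, at 50.4, 39.3 and 43.9 CPM and VDR, the vitamin D receptor, at 13.7, 13.2 and 15.1 CPM. The estrogen receptor gene ESR1 had 0, 0 and 2 counts and the progesterone receptor gene PGR had 0. ESR2 was expressed at 2.75, 2.46 and 2.10 CPM. No chemokine receptor of 22 was expressed, and 18 lay at the floor; CXCR4 had 3, 2 and 4 counts and CCR10 6, 26 and 20.

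**Figure D3:**
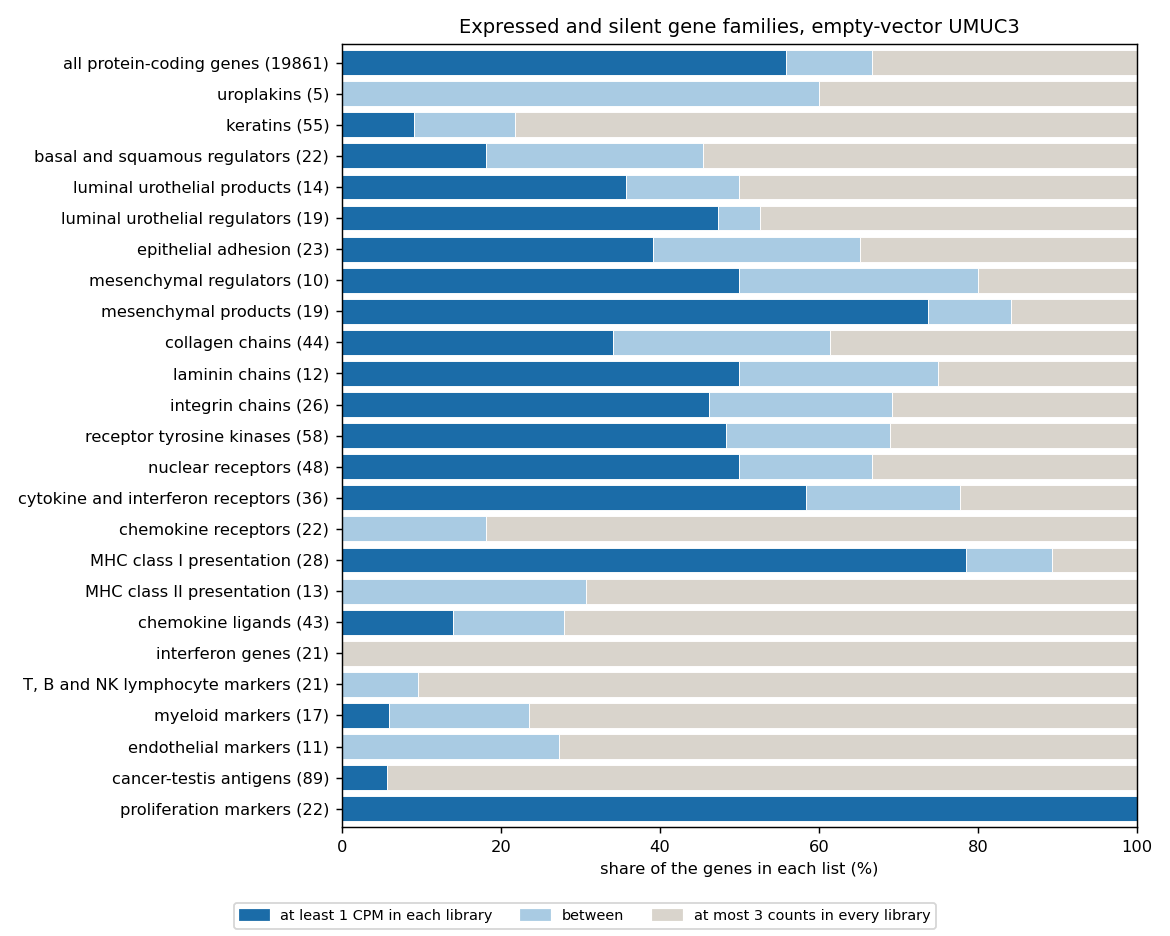
Share of the genes of each list that reached 1 CPM in each of 3 libraries (dark), that had at most 3 counts in every library (grey) or that lay between (light), with the number of genes in brackets and all protein-coding genes on top. Proliferation, class I presentation and mesenchymal products are mostly dark, and keratins, cancer-testis antigens, lymphocyte markers and interferons mostly grey.

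Several cell-surface proteins are targets of antibodies in bladder cancer, and 8 of 16 such genes were expressed (50%), near the 55.9% of all protein-coding genes. NECTIN4 and EPCAM had 0 counts in each library. CD276, an immune checkpoint protein, was expressed at 57.4, 50.9 and 55.9 CPM beside EPHA2, EGFR, ERBB2 and FGFR3. PSCA stood at 5.56, 3.51 and 3.61 CPM, F3, tissue factor, at 4.54, 4.31 and 4.95 CPM and MUC1 at 4.47, 3.32 and 2.10 CPM. CD274, which encodes PD-L1, was low, with 3, 13 and 8 counts, and PDCD1LG2, the gene of PD-L2, had 0.

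The machinery that presents antigens on class I molecules was expressed in 22 of 28 genes (78.6%), beside the 55.9% of all protein-coding genes. HLA-C stood at 281, 284 and 277 CPM and HLA-B at 72.0, 81.1 and 86.8 CPM. Per length HLA-C (395 ± 14 TPM) lay above HLA-B (92.2 ± 6.20 TPM) in each library. These genes are near-identical in parts and differ between people and cell lines, so reads may have been split or left out and the order is uncertain. B2M, their common light chain, was at 314, 411 and 359 CPM, and the peptide transporter TAP1 at 31.0, 59.1 and 56.1 CPM. Of 13 genes of class II presentation none was expressed, 4 were low and 9 lay at the floor. CIITA, the regulator of class II genes, was low at 0.894, 1.17 and 0.524 CPM and HLA-DRA had 0 counts.

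Other ligands that immune cells read were present in part, with 9 of 21 expressed (42.9%), beside the 55.9% of all protein-coding genes. NT5E, the enzyme CD73 that makes adenosine, stood at 420, 313 and 299 CPM, PVR, the ligand of TIGIT, at 75.1, 99.9 and 98.5 CPM, CD47 at 96.3, 81.7 and 82.0 CPM and CD70 at 26.6, 40.8 and 35.9 CPM. The stress ligands MICA (72.9 ± 1.87 CPM) and MICB (37.4 ± 2.13 CPM), which are read by natural killer cells, varied little between the libraries.

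Of 43 chemokine ligands 6 were expressed and 31 lay at the floor. CXCL1 stood at 8.31, 71.2 and 67.1 CPM, CXCL2 at 15, 73.4 and 66.9 CPM and CXCL8 at 8.31, 60.3 and 43.7 CPM. These attract neutrophils, and each was several-fold lower in replicate 1 than in the other libraries. CCL2, which attracts monocytes, followed the same order at 3.96, 16.2 and 13.2 CPM, and CCL20 had 0, 40 and 48 counts. CXCL9, CXCL12 and CCL28 had 0 counts, and CXCL10 had 0, 0 and 2.

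Of 29 interleukins and colony factors 7 were expressed. LIF stood at 37.2, 78.4 and 75.6 CPM, IL18 at 23.5, 49.3 and 45.4 CPM and IL32 at 11.2, 28.9 and 30.7 CPM, again lowest in replicate 1, while IL11 was highest there at 11.6, 6.83 and 6.64 CPM. IL6 had 0 counts in the 3 libraries, IL1A 0, 0 and 1, IL1B 0, 2 and 0 and TNF 2, 27 and 24. The 21 interferon genes lay at the floor, 20 of them with 0 counts. Of 31 innate sensors and adaptors 14 were expressed (45.2%), beside the 55.9% of all protein-coding genes. Among them were MAVS (219 ± 12.7 CPM), the adaptor for RNA sensing, and CGAS (54.6 ± 8.68 CPM) with STING1 (11.4 ± 2.37 CPM), the pair for DNA sensing. RIGI, an RNA sensor, was low with 6, 8 and 5 counts, IFIH1, another, was at 2.11, 4.49 and 4.89 CPM, and TLR4, TLR2 and AIM2 had 0 counts.

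Markers of other cell types were used to check the labelled cell type. Of 21 markers of T, B and natural killer cells none was expressed and 19 lay at the floor; PTPRC, CD3D, CD3E and MS4A1 had 0 counts and CD8A had 12, 8 and 7. Of 17 myeloid markers ITGAM alone was expressed; the count was 0 at 2 CPM and 2 at a mean of 1 CPM, where ELANE (37, 16 and 4 counts) was added. CD68, at 0 counts, shares 85.8% of its exon bases with another gene, so its reading is uncertain, and CD14, CD163 and CSF1R had at most 2 counts in any library. Of 11 endothelial markers none was expressed, with PECAM1, CDH5 and KDR at 0 counts. ESAM, an adhesion molecule, had 39, 33 and 16 counts, and counted as expressed without replicate 3, at 0.5 CPM or at a mean of 1 CPM. Of 14 smooth muscle and fibroblast markers 3 were expressed, CNN1, COL1A1 and PDGFRB, with DCN and LUM at 0 counts and DES at 0, 0 and 2.

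Genes of unrelated lineages were expressed in a few cases. Of 13 neural and neuroendocrine markers 5 were expressed: ENO2, a neuronal enolase that also serves glycolysis, at 300, 131 and 127 CPM, SNAP25, a vesicle fusion protein, at 25.9, 22.6 and 18.4 CPM, SYP, synaptophysin, at 9.39, 8.93 and 8.10 CPM, CHGB at 5.88, 5.66 and 5.54 CPM and TUBB3 at 6.64, 2.40 and 3.2 CPM. CHGA, chromogranin A, had 0, 1 and 2 counts and the neuroendocrine regulator NEUROD1 had 0. CDX2, an intestinal regulator, was the 1 expressed gene of 10 hepatic and intestinal markers, at 7.16, 6.28 and 5.77 CPM, with HNF4A, VIL1 and MUC2 at 0 counts. Of 14 pluripotency and germ cell markers 2 were expressed and 9 lay at the floor. KLF4, also a regulator in epithelia, stood at 5.94, 15.5 and 17.6 CPM and SALL4 at 2.24, 1.29 and 2.21 CPM, while NANOG and SOX2 had 0 counts.

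The cells had the transcripts of dividing cells. Each of 22 proliferation markers was expressed, with a median of 229 CPM. MKI67, the Ki-67 antigen, stood at 729, 509 and 460 CPM, TOP2A, a topoisomerase of mitosis, at 858, 583 and 539 CPM and PLK1, a mitotic kinase, at 136, 74.5 and 78.8 CPM, each highest in replicate 1. The replication genes PCNA (594, 521 and 523 CPM) and MCM7 (826, 840 and 876 CPM) differed less. CCND1, cyclin D1, stood at 511, 533 and 536 CPM, MYC at 178, 316 and 346 CPM, E2F1 at 82.0, 110 and 116 CPM and CCNE1, cyclin E1, at 31.2, 42.3 and 41.7 CPM. Tumour suppressor genes with transcripts included RB1 at 162, 121 and 114 CPM and ARID1A at 159, 160 and 152 CPM. Transcript counts do not show whether the encoded proteins are altered.

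In all, 35 of 40 cell cycle and tumour suppressor genes were expressed and 5 lay at the floor. Among the latter were CDKN2A and CDKN2B, inhibitors of CDK4 and CDK6, MYCN and FHIT. CDKN2A, CDKN2B and MYCN had 0 counts in each library and FHIT had 1, 0 and 1. CDKN2A (chromosome 9, 21967753 to 21995301, GRCh38) lay inside a run of 11 neighbouring protein-coding genes with 0 counts, from IFNA6 at 21349835 to DMRTA1 at 22455740. The run includes MTAP, an enzyme of methionine salvage. It was bounded by KLHL9 at 61.0, 51.5 and 48.1 CPM and by ELAVL2 at 2.04, 1.17 and 1.51 CPM, and 6 of its genes encode interferons. The genome held 34 runs of at least 11 protein-coding genes with 0 counts, this run among them. RNA counts do not show the state of the DNA, and whether this stretch is deleted was not tested.

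HOX genes, which set position along the body axis, were expressed for 20 of 39 members (51.3%), and 15 lay at the floor (38.5%). These shares were near the 55.9% and 33.3% of all protein-coding genes. The HOXB cluster held the most: 8 of 10 genes were expressed, HOXB2 to HOXB9, with means from 7.69 to 65.9 CPM, while HOXB1 and HOXB13 at the ends had 0 counts. HOXB9 stood at 51.1, 70.8 and 75.8 CPM, HOXB2 at 45.9, 61.3 and 55.2 CPM and HOXB7 at 46.1, 42.5 and 39.1 CPM. Per length HOXB7 (98.3 ± 10.7 TPM), HOXB9 (89.7 ± 15.8 TPM) and HOXB2 (81.5 ± 10.8 TPM) overlapped in range; HOXB9 lay above HOXB2 in each library, and HOXB7 above HOXB9 in replicates 1 and 2. The other clusters held fewer, with 3 of 11 HOXA genes, 4 of 9 HOXC genes and 5 of 9 HOXD genes expressed.

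The last genes of 3 clusters were expressed beyond a silent gap. HOXC13 stood at 8.11, 9.24 and 9.91 CPM and HOXD13 at 8.69, 10.9 and 11 CPM. HOXA13, with 22, 18 and 27 counts, was little past the threshold at 1.41, 1.11 and 1.57 CPM, and would not count as expressed at 2 CPM. Between them and the rest of their clusters, HOXA9, HOXA10 and HOXA11 had 0 counts, as did HOXC9, HOXC11, HOXC12, HOXD10 and HOXD11, with HOXC10 at 2, 0 and 0 counts and HOXD12 at 1, 0 and 2. HOXA7, HOXC5 and HOXD1 also had 0 counts but share 62.5%, 59.9% and 58.1% of their exon bases with other genes. HOXD4, at 11.6, 10.4 and 11.4 CPM, was expressed although it too shares exon bases with a neighbour.

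**Figure D4:**
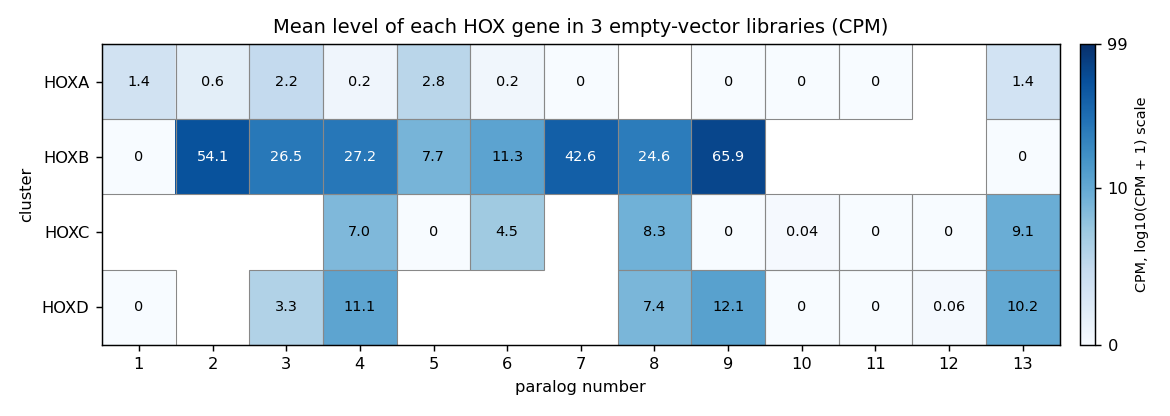
Mean CPM over 3 libraries of each of 39 HOX genes, with the 4 clusters as rows and the paralog number as columns; darker cells are higher on a log10(CPM + 1) scale and blank cells have no gene. HOXB2 to HOXB9 form the darkest row, and paralog 13 of HOXA, HOXC and HOXD is expressed beyond neighbours at or near 0, with HOXA13 little past 1 CPM.

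Cancer-testis antigens, genes normally limited to germ cells, were silent for the most part. Of 89 genes 5 were expressed and 84 lay at the floor, 78 of them with 0 counts. The 5 were MAGEA6 at 100, 108 and 110 CPM, MAGEA4 at 144, 177 and 160 CPM, MAGEA10 at 50.2, 57.3 and 61.5 CPM, MAGEA3 at 37.6, 32.0 and 26.6 CPM and MAGEC2 at 26.1, 27.6 and 25 CPM. Per length MAGEA6 (201 ± 5.52 TPM) and MAGEA4 (183 ± 17.4 TPM) overlapped in range, with MAGEA6 higher in each library. MAGEA3 and MAGEA6 are near-identical, so the split of reads between them is uncertain. PRAME, another antigen of this kind, had 2, 1 and 2 counts.

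The 3 libraries agreed closely but not to within counting noise. Over the 12549 expressed genes, the correlation of log2(CPM + 1) across genes, which are not independent, was 0.986 for replicates 1 and 2, 0.983 for replicates 1 and 3 and 0.994 for replicates 2 and 3. The chi-square per degree of freedom, which is near 1 for repeats of 1 library, was 18.4, 24.8 and 7.35, so no pair agreed within sampling noise and all 3 libraries were counted. The biological coefficient of variation was 14.5% over the 3 libraries and 8.12% over replicates 2 and 3. Among 10543 genes with a mean of at least 5 CPM, the median coefficient of variation was 10.3%. The highest library was over 2 times the lowest for 230 of them (2.18%). Replicate 1 was the highest or the lowest library for 226 of the 230 genes, the highest for 117 and the lowest for 109. Between replicates 2 and 3 alone, 4 genes differed by over 2 times.

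The 10 protein-coding genes of the widest spread were led by chemokines and stress factors. Beside CXCL1, CXCL8 and CXCL2, they included FOSB, a factor of the immediate early response, at 18.4, 139 and 154 CPM, and TRAF1, an adaptor of TNF receptors, at 3.32, 23.0 and 19.3 CPM. DDIT3 and ATF3, factors of the stress response, stood at 8.24, 53.7 and 53.5 CPM and at 4.66, 20.1 and 19.9 CPM, and IRF1, an interferon-regulated factor, at 7.41, 28.4 and 32.8 CPM. These 8 genes were lowest in replicate 1. The other 2 were highest in replicate 1: DEPP1, at 32.0, 4.68 and 7.69 CPM, and CLEC2B, a lectin, at 14.4, 6.03 and 3.26 CPM. Without replicate 1 the mean of DEPP1 was 6.19 CPM and that of CLEC2B 4.65 CPM. The labels give nothing that sets replicate 1 apart, and its total count was the lowest of the 3.

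**Figure D5:**
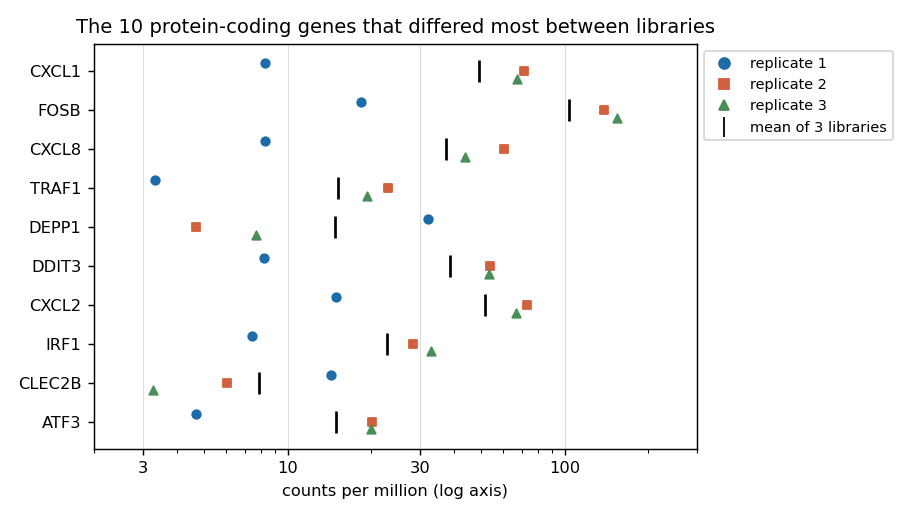
CPM on a log axis for the 10 protein-coding genes of the largest ratio of highest to lowest library, among genes with a mean of at least 5 CPM, 1 point per library and a bar for the mean. Replicate 1 lies below the other libraries for 8 genes and above them for DEPP1 and CLEC2B.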

How the data were processed

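Total RNA of UMUC3 cells was sequenced, and the deposited table holds a raw, unnormalized count for every Ensembl gene and library. The tools listed, per the submitters' processing notes, are HISAT2 2.0.5 (an aligner), featureCounts 1.5.0-p3 (a read counter) and DESeq2 1.16.1, with the build hg38. Which annotation was counted, with which strand setting and how multi-mapping reads were handled is not given in the sources used. Reads of overlapping, antisense or near-identical genes may therefore have been split or left out.

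The 3 empty-vector columns were used, and groups came from the treatment in the labels. The table has 60605 genes; symbols were found for 60593, and 58337 were in GENCODE 29 (GRCh38), which gave positions, biotypes and exon lengths. CPM used the raw column totals, and TPM the union of each gene's exons. Python 3.11.15, R 4.3.3 and edgeR 4.0.16 were used; edgeR gave the TMM (trimmed mean) factors and, on genes kept at a minimum count of 10, the common dispersion with an intercept only. The chi-square of 2 libraries used genes with a summed count of at least 10. Both were tested on simulated data. Promoters came from RefSeq (GRCh38.p14): 15312 of 19861 protein-coding genes matched, 11310 with exactly 1 entry.

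Named genes were the 20 of the highest mean CPM, the defining members of 48 gene lists (1200 genes, 536 expressed and 502 at the floor) with up to 8 expressed members of the highest TPM in each, and the 10 protein-coding genes of the widest spread; families were taken whole by symbol. The genes outside this rule were named after their values were seen. The members and lists were chosen with earlier results of these data known. Floors cover counting error only. Some genes of the lists are not reported here. Alternatives were other scalings, thresholds, lengths and leaving out each library.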

Additional observations from a re-analysis of the deposited data

How the results depend on the processing

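The count of expressed protein-coding genes stayed within 1.5 times of 11099 under TMM scaling, with mitochondrial counts left out of the totals, at thresholds of 0.5 and 2 CPM in each library, at 1 CPM for the mean alone, and without each library. The 10 most abundant genes took 7.17% of the counts on average, and 6.06% with mitochondrial counts left out. The number of genes whose highest library was over 2 times the lowest was 230, and 956 among genes with a mean of at least 1 CPM. Leaving out 1 library in turn, an alternative chosen after seeing the data, gave from 4 to 190 such genes, the 4 without replicate 1. Under TMM scaling each of the 366 named genes moved by less than its SD, with ratios between 0.970 and 1.03. Of 384 counts of expressed list members under an alternative, 10 in 6 lists moved by over 1.5 times: those of chemokine receptors, myeloid, endothelial, smooth muscle and fibroblast, pluripotency markers and class II presentation, each with 3 or fewer expressed genes. Other lists moved up to this limit. At 2 CPM the luminal regulators fell from 9 to 6 and the desmosome genes from 6 to 4. At 0.5 CPM the basal and squamous genes rose from 4 to 6. Leaving out replicate 1 moved the mean of DEPP1 from 14.8 to 6.19 CPM, of CLEC2B from 7.89 to 4.65 CPM and of ALDOA from 1.30 to 0.831 CPM. Of the 20 genes highest per length, 17 remained with the length of the longest transcript. No paired analysis was possible because only 1 group was used and no result comes from a test. With 3 libraries of 15651864 to 17162935 counts, a count of 0 in 1 library allows a level up to the floor of 0.175 to 0.192 CPM. Genes under this floor could still have a few counts.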

Other observations

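S100 and annexin genes, which encode calcium-binding proteins, were expressed for 13 of 31 members (41.9%), beside the 55.9% of all protein-coding genes. S100A11 stood at 257, 254 and 318 CPM and reached 1429 ± 150 TPM per length, the highest of the family, and ANXA2, annexin 2, stood at 2565, 2587 and 2351 CPM (999 ± 75.4 TPM). S100A10, the partner of annexin 2, was at 808 ± 71.6 TPM and S100A6 at 99.9 ± 9.51 TPM. S100A4, often counted as a mesenchymal marker, had 8, 5 and 8 counts, and the inflammatory genes S100A8 and S100A9 had 0 and 0, 0 and 1 counts.

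Of 40744 entries that were not annotated as protein-coding or were absent from GENCODE 29, 1450 were expressed (3.56%). Genes annotated as protein-coding held between 97.7% and 97.8% of the counts. NEAT1, a nuclear RNA that scaffolds paraspeckles, stood at 371, 686 and 591 CPM, lowest in replicate 1, and MALAT1, a nuclear speckle RNA, at 164, 250 and 222 CPM. NORAD, a cytoplasmic RNA that binds Pumilio proteins, was at 284, 242 and 223 CPM, and GAS5, a host of small nucleolar RNAs, at 200, 245 and 207 CPM. MT-RNR2, a ribosomal RNA of the mitochondrial genome, stood at 2204, 2914 and 3487 CPM. Outside the mitochondrial genome, the highest annotated entry of this kind was EEF1A1P5, a processed pseudogene of EEF1A1, at 679, 814 and 767 CPM. EEF1A1P5 is a near-identical copy, and how much of its count comes from EEF1A1 itself was not tested. Apart from MT-RNR2, these genes were chosen after their values were seen.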
